A study of Mus musculus with 9 samples.

Results

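Bile duct epithelium and its reactive form, the ductular reaction, were followed in mouse liver through 9 genes chosen by name: Krt7, Krt19, Krt23, Sox9, Epcam, Cd24a, Cftr, Sctr and Cldn4. They are 9 of the 16521 genes in the deposited tables, and reads were found for each of them. They were chosen with earlier results of these data known, so counts of members called are not independent of the data. Liver RNA was sequenced from C57BL/6 mice in 3 groups of 3 samples. Normal mice received saline. Model mice received a methionine-choline-deficient (MCD) diet, which leaves the liver short of nutrients needed to export fat and serves as a fatty liver model with inflammation and fibrosis. SAR mice received the same diet and a high dose of SAR (sarsasapogenin, a plant steroid), so the diet was common to model and SAR mice. The labels used here state no amount for the dose and no age or sex, nor do they tie each sample to its own mouse, so p-values reflect the spread among these samples and that spread may be technical.

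Cholangiocytes are the epithelial cells that line the bile ducts. They hold simple keratins, are joined by tight junctions, and add bicarbonate and water to bile when the hormone secretin binds its receptor. In many liver injuries, strands of duct-like cells expand at the edge of the portal tracts, a change called the ductular reaction. Notch and YAP signalling are known to specify biliary cells and to act in this expansion. Whole liver RNA is mostly hepatocyte RNA, and in it fewer cells of a type and less RNA per cell cannot be told apart.

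Promoters are shown for Cldn4, Krt7 and Epcam, which were higher in the model group than in the normal group, and for Krt23, which did not pass that test. RefSeq promoter sequences on GRCm38.p6 matched 5 of the 9 members, and the 250 bases before the start of transcription are given 5′ to 3′. Capitals mark the GC box GGGCGG on either strand (CCGCCC where it lies on the other strand) and the AP-1 motif TGANTCA, with overlapping matches run together. The positions are chr5:134946935-134947184 on the minus strand for Cldn4, chr15:101412153-101412402 on the plus strand for Krt7, chr17:87635729-87635978 on the plus strand for Epcam and chr11:99493121-99493370 on the minus strand for Krt23.
Cldn4: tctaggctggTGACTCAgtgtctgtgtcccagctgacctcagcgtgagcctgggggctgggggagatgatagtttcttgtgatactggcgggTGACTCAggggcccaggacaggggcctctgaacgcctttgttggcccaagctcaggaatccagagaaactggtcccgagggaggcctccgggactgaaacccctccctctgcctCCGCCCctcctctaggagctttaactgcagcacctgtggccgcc
Krt7: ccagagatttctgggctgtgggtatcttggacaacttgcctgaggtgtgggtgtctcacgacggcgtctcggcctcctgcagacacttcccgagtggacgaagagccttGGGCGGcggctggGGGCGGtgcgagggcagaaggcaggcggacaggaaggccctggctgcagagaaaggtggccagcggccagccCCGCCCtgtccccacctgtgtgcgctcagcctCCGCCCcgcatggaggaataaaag
Epcam: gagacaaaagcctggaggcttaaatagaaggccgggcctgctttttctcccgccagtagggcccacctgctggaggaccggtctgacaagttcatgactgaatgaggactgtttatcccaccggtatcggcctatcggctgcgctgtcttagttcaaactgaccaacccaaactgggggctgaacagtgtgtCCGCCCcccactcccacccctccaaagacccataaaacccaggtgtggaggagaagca
Krt23: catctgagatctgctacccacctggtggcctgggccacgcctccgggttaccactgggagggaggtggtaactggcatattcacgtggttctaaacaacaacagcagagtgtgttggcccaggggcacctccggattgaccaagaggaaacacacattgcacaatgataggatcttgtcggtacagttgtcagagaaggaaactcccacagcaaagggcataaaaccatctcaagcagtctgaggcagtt

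The GC box was found in 4 of the 5 member promoters (Cftr, Cldn4, Epcam and Krt7, not Krt23), against 32.7% of 32851 promoters of the same length. Only Cldn4 of the 5 held TGANTCA, with 2 matches, against 6.75% of all promoters. None of the 5 held the TEAD motif GGAATG (12.6% of all promoters), the RBPJ motif TGGGAA (21.6%), the Grainyhead-like motif AACNNGTT (3.64%), the HNF1 motif GTTAAT (6.43%) or the SOX motif AACAAT (9.42%). Each motif was searched on both strands, and these matches are a description of the letters in this window only. No measurement of binding bears on them.

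The deposited values are group means, from which whole reads were recovered for each library. Within a group the libraries are lettered a, b and c by falling size factor, and a letter says nothing about which labelled replicate a library is. Reads resolved per library came to between 5783860 and 9607100, with the most abundant genes left out. Normalised reads below are on 1 scale common to the 9 libraries, without correction for gene length. Library c of the model group stood apart from libraries a and b for most members, and library c of the normal group held far more neutrophil marker reads than the other normal libraries, so counts are given with and without them. Of 10 hepatocyte markers the authors' deposited table had 8 lower in the model group than in the normal group at an adjusted p under 0.05 and none higher, the 2 others being Alb (fold 0.877) and Ttr (fold 0.806). The deposited fold was 0.155 for Cps1, 0.207 for Hpd, 0.224 for Tat and 0.392 for Hnf4a in the authors' deposited table. For SAR against model 16.5% of all genes changed in either direction in the authors' deposited table. There 9 of the 10 hepatocyte markers were higher and none lower, with Cps1 (fold 2.56) not passing. The part of these differences in the bile duct results was not tested.

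In the model group against the normal group, 7 of the 9 bile duct genes were higher and none was lower. They were Krt7, Krt19, Sox9, Epcam, Cftr, Sctr and Cldn4, with log2 fold changes from 1.63 to 4.61, whereas Krt23 and Cd24a did not pass the test. Krt7, Cftr, Sctr and Cldn4 had normal means under 10 and entered the test only through their model values, and Cftr, Sctr and Cldn4 had the largest fold changes of the 7. Over all 12470 genes tested with limma at an adjusted p under 0.05, 20.2% were higher and 39.1% changed in either direction, with a median log2 fold change of 0.03. The median of the 9 genes was 2.76. Leaving out model library c gave 8 of 9 higher, with 46% of all genes changed in that fit, and leaving out normal library c gave 4 of 9, with 39.1%. Without normal library c and model library c together 8 of 9 were higher, with 57.8% of all genes changed, an alternative added after the data were seen and after the members were found to be low in model library c. The other single omissions gave 1 without normal library a (23.1% of all genes changed), 5 without normal library b (28.3%), 0 of 8 tested without model library a (21.5%) and 1 of 8 without model library b (19.7%). At an unadjusted p under 0.05, 2 of those 8 were higher without model library a. The adjusted p of the authors' deposited table was under 0.05 for 6 of the 9, all but Sox9, Krt23 and Cd24a, against 23.5% of all genes in that table.

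In the SAR group against the model group, 6 of the 9 bile duct genes were lower and none was higher. They were Krt7, Krt19, Krt23, Epcam, Cd24a and Sctr, with log2 fold changes from -3.07 to -1.61, whereas Sox9, Cftr and Cldn4 did not pass. Over all 12440 genes tested, 16.2% were lower and 29.4% changed in either direction (limma, adjusted p under 0.05), with a median of 0.01, and the median of the 9 genes was -2.50. All 9 were lower without model library c, where 41.3% of all genes changed. Leaving out model library a gave 2 of 9 (13.4% of all genes changed) and model library b 1 of 8 (12.5%). Omission of SAR library a, b or c gave 6, 2 and 2 of 9, with 27%, 14.4% and 17.8% of all genes changed. Krt7, Cftr, Sctr and Cldn4 again entered the test only through their model values. In the authors' deposited table the adjusted p was under 0.05 for 2 of the 9, Krt23 and Cd24a, against 16.5% of all its genes. The same 3 model libraries stand in both comparisons, so the 2 sets of values are not independent of each other.

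**Figure D1:**
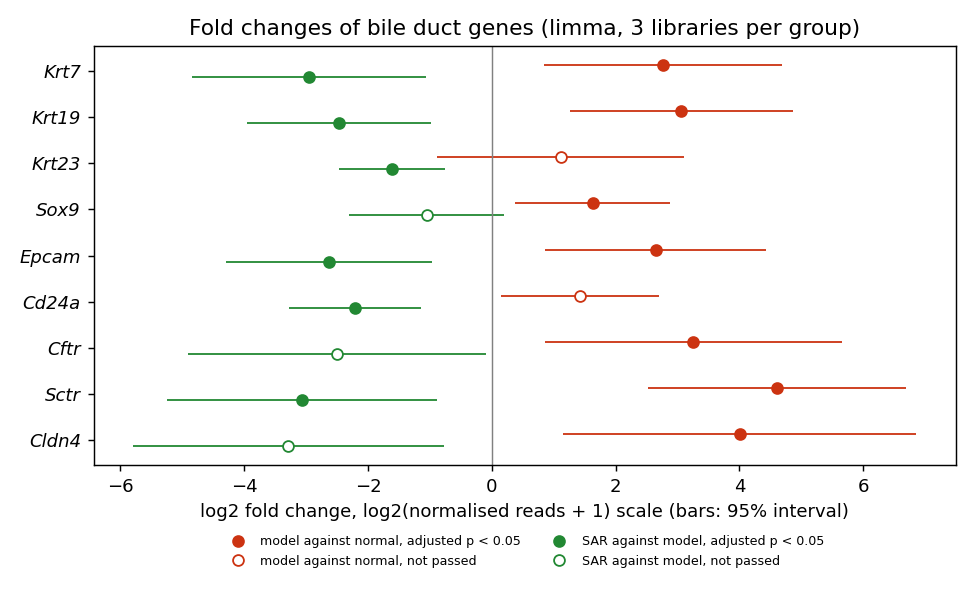
Log2 fold changes of the 9 bile duct genes on the log2(normalised reads + 1) scale, for model against normal and SAR against model, with 95% intervals of limma fits of 3 libraries per group. Filled points passed an adjusted p of 0.05, which 7 genes did in the first comparison and 6 in the second, and both comparisons use the same model libraries.

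Krt7 and Krt19 encode the keratins of simple duct epithelium, and both were high in model libraries a and b alone. Krt7 (ENSMUSG00000023039) stood at 6.73, 11.9 and 7.73 normalised reads in normal libraries a, b and c, at 112, 151 and 14.3 in the model libraries and at 14.3, 4.85 and 5.14 in the SAR libraries. All 3 model values lay above the normal values, and SAR library a was level with model library c. Krt7 was higher in the model group than in the normal group by a log2 of 2.76 (SE 0.83, limma adjusted p = 0.0332) and fell by 2.96 in the SAR group against the model group (SE 0.84, limma adjusted p = 0.0290). The first call held in 1 of 6 fits that each left out 1 library, the fit without model library c, with limma adjusted p of 0.0552 to 0.126 without any other. The second held without model library c or SAR library a and was lost without model library a or b or SAR library b or c (limma adjusted p = 0.0873 to 0.124).

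Krt19 (ENSMUSG00000020911) stood at 10.6, 20.5 and 5.52 normalised reads in normal libraries a, b and c, at 171, 183 and 27.9 in the model libraries and at 15.5, 21.8 and 12.8 in the SAR libraries. Its model values overlapped with neither of the other groups, although model library c lay much nearer to them than to model libraries a and b. The log2 fold change was 3.06 in the model group against the normal group (SE 0.78, limma adjusted p = 0.0186) and -2.47 in the SAR group against the model group (SE 0.66, limma adjusted p = 0.0236). The rise did not pass without normal library a, model library a or model library b (limma adjusted p = 0.0557 to 0.0809). The fall passed only without model library c, and gave limma adjusted p of 0.0547 to 0.0979 without any of the other 5 libraries.

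Krt23, a keratin known to be induced in liver injury, had another pattern. Krt23 (ENSMUSG00000006777) stood at 121, 88.6 and 8.83 normalised reads in normal libraries a, b and c, at 84.6, 127 and 97.2 in the model libraries and at 31.0, 19.4 and 55.2 in the SAR libraries. Model library c was here within the range of the other model libraries, and the low value was that of normal library c, at 8.42% of the mean of normal libraries a and b. Model and normal libraries overlapped, and the log2 fold change between them was 1.12 (SE 0.86, 95% interval -0.88 to 3.11, limma adjusted p = 0.325). Without normal library c it was -0.026. All SAR libraries lay below all model libraries, and Krt23 fell by 1.61 (log2, SE 0.38, limma adjusted p = 0.0151), which among the 6 omissions was lost without model library b (limma adjusted p = 0.0689) and was also lost with all 3 groups in 1 fit (limma adjusted p = 0.145).

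Sox9, the transcription factor that marks biliary cells and hepatocytes near the portal tracts, was higher in the model group. Sox9 (ENSMUSG00000000567) stood at 66.3, 96.2 and 107 normalised reads in normal libraries a, b and c, at 414, 471 and 104 in the model libraries and at 195, 145 and 77.0 in the SAR libraries. Model library c lay among the normal values and below 2 of the 3 SAR values. The log2 fold change was 1.63 for model against normal (SE 0.54, limma adjusted p = 0.0459), and this call held only without model library c among the 6 omissions (limma adjusted p = 0.0536 to 0.156 for the others). For SAR against model it was -1.05 (SE 0.55, 95% interval -2.30 to 0.20, limma adjusted p = 0.177). Without model library c Sox9 differed by -1.75 between SAR and model (limma adjusted p = 0.00230).

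Epcam encodes an adhesion molecule of bile duct and progenitor cells that adult mouse hepatocytes lack. Epcam (ENSMUSG00000045394) stood at 16.3, 54.1 and 33.1 normalised reads in normal libraries a, b and c, at 348, 400 and 55.0 in the model libraries and at 45.4, 44.8 and 14.1 in the SAR libraries. Model library c exceeded the highest normal value by little, and no group overlapped with the model group. Epcam was higher in the model group by a log2 of 2.64 (SE 0.77, limma adjusted p = 0.0296) and fell by 2.63 in the SAR group against the model group (SE 0.74, limma adjusted p = 0.0283). The rise was lost without normal library a or model library a or b (limma adjusted p = 0.0957 to 0.113). The fall was lost without model library a or b or SAR library b or c (limma adjusted p = 0.0635 to 0.105).

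Cd24a encodes a small surface glycoprotein of bile duct cells that neutrophils and B cells also carry. Cd24a (ENSMUSG00000047139) stood at 47.1, 55.1 and 124 normalised reads in normal libraries a, b and c, at 289, 269 and 81.2 in the model libraries and at 31.0, 33.9 and 55.2 in the SAR libraries. The highest normal value, in library c, exceeded the lowest model value. Its log2 fold change in the model group against the normal group was 1.42 (SE 0.55, 95% interval 0.15 to 2.69, limma adjusted p = 0.0721). It passed without normal library c (log2 1.84, limma adjusted p = 0.0290) or without model library c (log2 2.01, limma adjusted p = 0.00860). In the SAR group Cd24a fell by 2.21 against the model group (SE 0.47, limma adjusted p = 0.0104), and this held without each of the 6 libraries in turn (limma adjusted p of at most 0.0476). The summed neutrophil markers stood at 71.1, 181 and 7820 normalised reads in normal libraries a, b and c, at 752, 1316 and 2662 in the model libraries and at 151 to 494 in the SAR libraries. The summed B cell markers stood at 52.9 to 91.7 normalised reads in the normal libraries, at 129 to 135 in the model libraries and at 63.0 to 101 in the SAR libraries. The part of these cells in Cd24a was not tested.

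**Figure D2:**
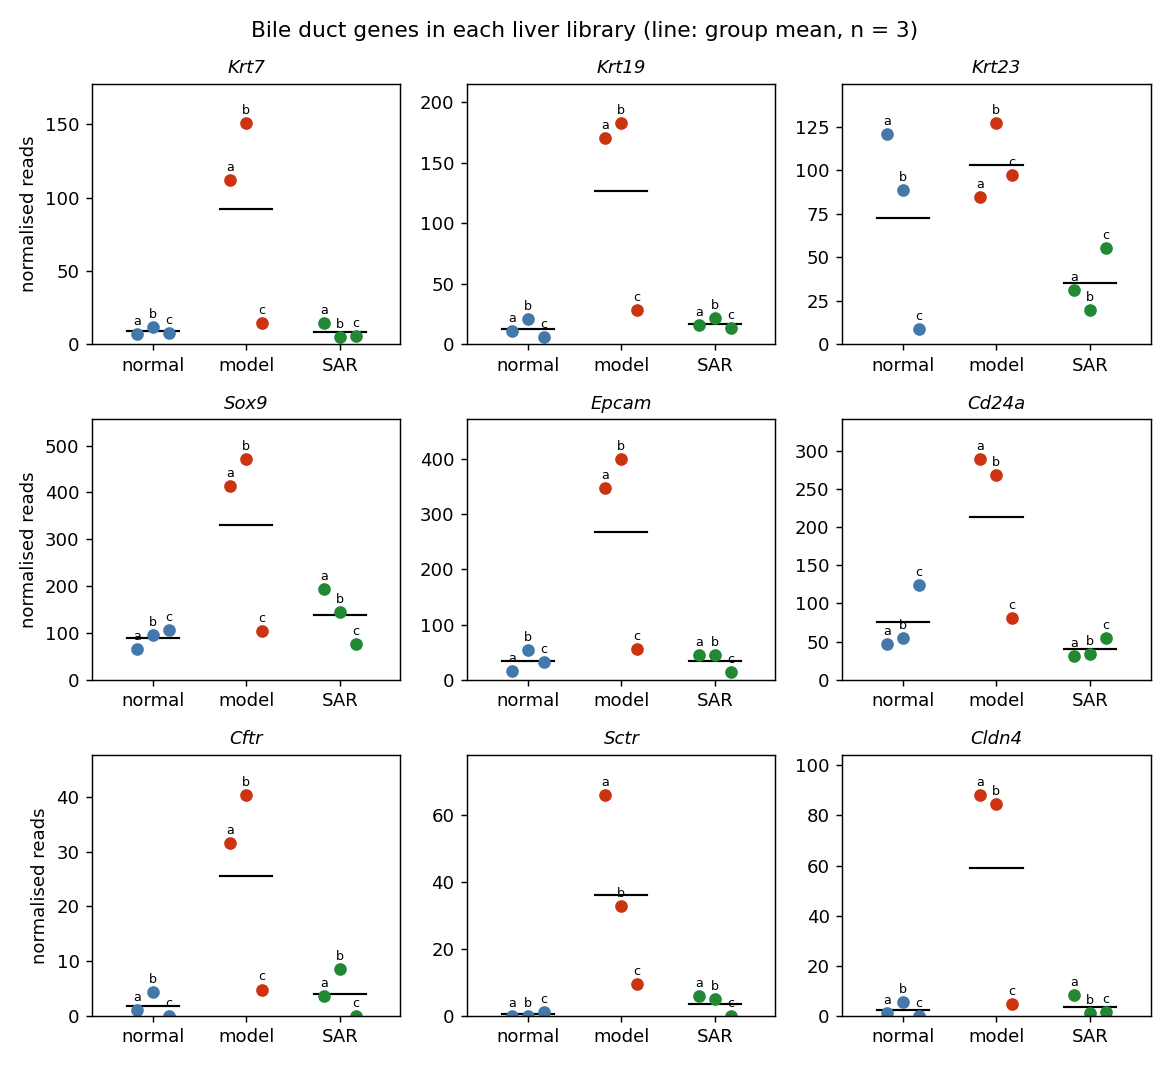
Normalised reads of the 9 bile duct genes in the normal, model and SAR libraries, each panel with its own vertical axis from 0, points lettered a, b and c and lines at group means (n = 3). In 8 of the 9 panels model library c lies below model libraries a and b, and for Krt23 it lies between them.

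Sctr and Cftr serve secretion: the secretin receptor raises cyclic AMP in cholangiocytes, and the chloride channel Cftr then opens. Sctr (ENSMUSG00000026387) had 0, 0 and 1 read in normal libraries a, b and c, 92, 43 and 12 in the model libraries and 5, 4 and 0 in the SAR libraries. Few reads were found outside the model group, and all 3 model libraries lay above the other 6. Pooled over each group, as the sum of reads over the sum of size factors, the ratio of model to normal was 107, with an exact 95% interval of 18.9 to 4245 that covers counting error only. The fitted log2 fold change was 4.61 (SE 0.90, limma adjusted p = 0.00764), and the call held without each library but model library a, without which Sctr fell below the minimum mean and was not tested. Sctr fell by 3.07 in the SAR group against the model group (SE 0.97, limma adjusted p = 0.0420), which did not pass once model library a or b or SAR library b or c was left out (limma adjusted p = 0.0730 to 0.187).

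Cftr (ENSMUSG00000041301) had 1, 4 and 0 reads in normal libraries a, b and c, 44, 53 and 6 in the model libraries and 3, 7 and 0 in the SAR libraries. In normalised reads model library c, at 4.78, exceeded the highest normal library, at 4.32, but not the highest SAR library, at 8.48. Cftr was higher in the model group than in the normal group by a log2 of 3.26 (SE 1.04, limma adjusted p = 0.0402). This call was lost without normal library a or c or model library a (limma adjusted p = 0.0716 to 0.154), and without model library b Cftr fell below the minimum mean and was not tested. For SAR against model the log2 fold change was -2.50 (SE 1.07, 95% interval -4.91 to -0.09, limma adjusted p = 0.107), and -3.39 without model library c (limma adjusted p = 0.0171).

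Cldn4, a claudin of the tight junctions of duct cells, had 1, 5 and 0 reads in normal libraries a, b and c, 123, 111 and 6 in the model libraries and 7, 1 and 1 in the SAR libraries (ENSMUSG00000047501). Model library c, at 4.78 normalised reads, lay below the highest normal library, at 5.41, and below the highest SAR library, at 8.36. The log2 fold change for model against normal was 4.0 (SE 1.23, limma adjusted p = 0.0358), and the call did not hold when any of normal libraries a and c and model libraries a and b was left out (limma adjusted p = 0.0690 to 0.145). For SAR against model it was -3.29 (SE 1.11, 95% interval -5.80 to -0.77, limma adjusted p = 0.0528). It passed without model library c (log2 -4.60, limma adjusted p = 0.00102) or SAR library a (log2 -3.98, limma adjusted p = 0.0458).

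Krt7, Krt19, Epcam, Cftr and Sctr were the 5 members whose model libraries all lay above all normal libraries, against 27.5% of all genes tested. Of these, Krt7, Cftr and Sctr entered the test only through their model values, which favours such separation. For Cftr the lowest model value was 4.78 normalised reads and the highest normal value 4.32. Krt19, Krt23, Epcam, Cd24a and Sctr were the 5 whose SAR libraries all lay below all model libraries, against 23.3% of all genes tested. Sctr again entered only through its model values.

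Model library c held 5.54% (Cldn4) to 29.1% (Cd24a) of the mean of model libraries a and b for 8 of the members, and 91.8% for Krt23. On a log2 scale the median difference of library c from a and b was -2.62 over the 9 members in the model group. Over all genes it was 0.00, with quartiles of -0.35 and 0.33. For normal libraries the members' median was -0.19, and for SAR libraries -0.99. Epcam and Krt19 kept a similar ratio while both differed between the model libraries, with 2.04, 2.19 and 1.97 Epcam reads per Krt19 read in a, b and c. In libraries with fewer reads this ratio was 1.55, 2.63 and 6 (normal) and 2.92, 2.06 and 1.1 (SAR). Per Krt19 read there were 0.50, 0.70 and 3.49 Krt23 reads in the model libraries. The summed stellate cell and fibroblast markers stood at 8261, 7118 and 8276 normalised reads in model libraries a, b and c, of which Dcn made up 5614, 4426 and 5812. Single markers of this list went both ways in library c. Acta2 stood at 419, 358 and 116 normalised reads and Pdgfrb at 453, 333 and 211, whereas Lrat stood at 151, 119 and 390 and Reln at 389, 463 and 702. Their part in the low values of library c was not tested.

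**Figure D3:**
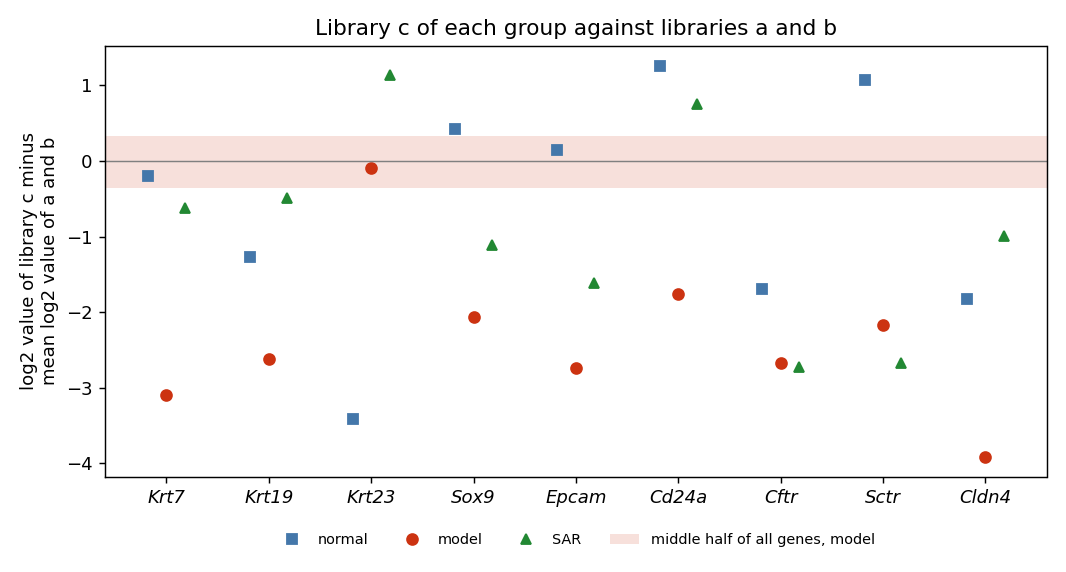
Log2 normalised value (+ 1) of library c minus the mean of libraries a and b for each of the 9 genes in each group, with the range between the quartiles of all genes in the model group shaded. The model points lie between -3.92 and -1.77, apart from Krt23 at -0.09.

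SAR and normal libraries, which come from different deposited tables, were compared on size factors computed over the 9 libraries. None of the 5 members with enough reads passed (limma, 0 also at an unadjusted p under 0.05), against 3.57% of 11678 genes tested. Intervals were wide, so these values do not show that the groups were alike. The log2 fold change of SAR against normal was 0.56 for Krt19 (95% interval -0.76 to 1.88, limma adjusted p = 0.568) and 0.55 for Sox9 (-0.25 to 1.35, limma adjusted p = 0.345). For Epcam it was -0.01 (-1.33 to 1.32, limma adjusted p = 0.997), for Cd24a -0.81 (-1.75 to 0.14, limma adjusted p = 0.25) and for Krt23 -0.52 (-2.55 to 1.51, limma adjusted p = 0.742). Without normal library c Krt23 was lower in the SAR group (log2 -1.65, limma adjusted p = 0.0417), and without normal library a its log2 fold change was 0.16. Krt7, Cftr, Sctr and Cldn4 had too few reads for the test, with 20, 10, 9 and 9 reads over the SAR group and 25, 5, 1 and 6 over the normal group. For Sctr the pooled ratio of SAR to normal was 10.6 (exact 95% interval 1.47 to 464, counting error only).

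Levels of different genes can be compared only per length of transcript, here per kilobase of all exons in GENCODE M21, which may not be the annotation that was counted. All exons together spanned 7049 bases for Krt7 and 7765 for Cftr, against 1565 to 4135 for the other members. This span can exceed the length of the transcript present, which would place a gene too low, so the order below is tentative. In the model group Epcam had 122 ± 84.7 normalised reads per kilobase, Cd24a 82.5 ± 44.4, Sox9 79.7 ± 47.7, Krt19 68.5 ± 46.4 and Krt23 65.8 ± 14 (SD, n = 3). Below them came Cldn4 at 32.6 ± 25.9, Sctr at 17.9 ± 14.1, Krt7 at 13.1 ± 9.97 and Cftr at 3.29 ± 2.39 normalised reads per kilobase (SD, n = 3). Except for Krt23 and Cldn4, neighbours in this order differed by less than the larger of their SDs. In the normal group the order was led by Krt23 at 46.6 ± 36.9 and Cd24a at 29.2 ± 16.3 normalised reads per kilobase (SD, n = 3), and Sctr was last.

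Genes of 5 related lists were then counted, beside a background of 20.2% higher and 18.9% lower for model against normal and of 13.2% higher and 16.2% lower for SAR against model. The lists, like the members, were chosen with earlier results of these data known. Some list genes entered the test only through their model values, such as Krt20 and Cxcl5, with 0 and 3 reads over the normal group. This favours calls of higher in the model group and of lower in the SAR group. For model against normal 19 genes of the ductular reaction list and 22 of the epithelial junction list were tested, against 12 and 15 for SAR against normal. Of 16 biliary transcription factors and Notch pathway genes tested, 6 were higher and 3 lower in the model group. Sox4, a factor active with Sox9 in duct formation, stood at 8.83 to 35.7 normalised reads in the normal libraries, at 463, 422 and 53.4 in model libraries a, b and c and at 28.2 to 70.4 in the SAR libraries. It was higher in the model group by a log2 of 3.31 (SE 0.87, limma adjusted p = 0.0208) and fell by 2.26 with SAR (SE 0.74, limma adjusted p = 0.0480). The Notch target Hey1 (log2 2.60, limma adjusted p = 0.0210), the Notch ligand Jag2 (log2 2.51, limma adjusted p = 0.0343) and Hes1, Heyl and Lfng were also higher. Lower were Onecut1, Onecut2 and Foxa3, factors that hepatocytes express too. The receptors Notch1, Notch2 and Notch3 and the ligand Jag1 did not pass. In the SAR group 5 of 16 were lower than in the model group, among them Jag2 (log2 -2.89, limma adjusted p = 0.0387) and Notch3 (log2 -1.92, limma adjusted p = 0.00998), and Foxa3 was higher. Against normal libraries, Onecut1 was lower in the SAR group (log2 -2.89, limma adjusted p = 0.0390), with 3.64 to 17.9 normalised reads against 46.5 to 78.8, the only one of 14 genes tested to pass. Without model library a 1 gene of this list was higher and without model library b 3, against 7 without model library c, 2 without normal library a and 4 without normal library c. The shares of all genes changed, which apply to every list, were 21.5%, 19.7% and 46% without model libraries a, b and c. Without normal libraries a, b and c they were 23.1%, 28.3% and 39.1%. For SAR against model, 1 was lower without model library a or b, 9 without model library c, 2 without SAR library b and 3 without SAR library a or c. Of all genes, 13.4%, 12.5% and 41.3% changed in that comparison without model libraries a, b and c. Without SAR libraries a, b and c 27%, 14.4% and 17.8% changed, and these shares also apply to every list.

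Of 11 YAP and TEAD pathway genes and targets, 6 were higher and 1, Yap1 itself, was lower in the model group. Ankrd1, a target of YAP, stood at 2.21 to 3.84 normalised reads in the normal libraries, at 84.6, 75.3 and 9.56 in model libraries a, b and c and at 3.64 to 8.36 in the SAR libraries. It rose by a log2 of 3.38 (SE 0.84, limma adjusted p = 0.0175) and fell by 2.57 with SAR (SE 0.80, limma adjusted p = 0.0402). Ajuba, a scaffold protein of this pathway, differed from the bile duct genes in model library c. It stood at 57.4 to 118 in the normal libraries, at 292, 260 and 207 in model libraries a, b and c and at 34.7 to 48.9 normalised reads in the SAR libraries, with no overlap between groups. Its log2 fold change was 1.68 for model against normal (SE 0.29, limma adjusted p = 0.00498) and -2.60 for SAR against model (SE 0.23, limma adjusted p = 0.000374). Tead2 was higher in the model group (log2 1.85, limma adjusted p = 0.0442), and the receptor kinase Axl was lower in the SAR group than in the model group (log2 -1.53, limma adjusted p = 0.00125). In that comparison 6 of 10 were lower and none higher, and against normal libraries Amotl2 alone of 8 passed, higher by a log2 of 0.79 (limma adjusted p = 0.0463). The count of higher genes was 3 without model library a, 2 without model library b and 4 without any 1 normal library. The count of lower genes with SAR was 3 and 2 without model libraries a and b, and 2 and 3 without SAR libraries b and c.

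Of 15 genes for bile secretion and cilia tested, 5 were higher in the model group and lower in the SAR group, and Atp1b1, a sodium pump subunit, went the opposite way in both. The potassium channel Kcnn4 stood at 6.49 to 16.3 normalised reads in the normal libraries, at 140, 113 and 53.4 in model libraries a, b and c and at 16.7 to 39.8 in the SAR libraries. It rose by a log2 of 2.94 (SE 0.49, limma adjusted p = 0.00464) and fell by 1.95 with SAR (SE 0.45, limma adjusted p = 0.0137). Bicc1, an RNA-binding protein linked to cystic kidney disease, rose by 1.91 (limma adjusted p = 0.0296) and fell by 2.21 (limma adjusted p = 0.0125). The chloride channel Ano1 rose by 1.76 (limma adjusted p = 0.0349), and Pkhd1, mutated in polycystic liver and kidney disease, fell by 1.47 with SAR (limma adjusted p = 0.0368). The water channel Aqp1 and the bile acid transporter Slc10a2 did not pass in either comparison. Without normal library a, model library a or model library b 2 genes were higher, without normal library c 3, and without model library c 8. Lower with SAR were 1 and 0 genes without model libraries a and b, and 0 and 2 without SAR libraries b and c.

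Of 22 genes for epithelial junctions, simple keratins and epithelial regulators, 10 were higher and none lower in the model group, and 9 were lower and none higher in the SAR group against the model group. Krt20, a keratin of gut epithelium, had 0 reads in all 3 normal and all 3 SAR libraries and 36.6, 49.5 and 3.19 normalised reads in model libraries a, b and c. Against a floor of 3 reads over the group it was at least 29.0-fold higher in the model group than in the normal group and at least 24.6-fold higher than in the SAR group. Ehf, an epithelial transcription factor, rose by a log2 of 3.34 (limma adjusted p = 0.0224) and fell by 2.94 with SAR (limma adjusted p = 0.0293). Ap1m2, an epithelial sorting protein, rose by 3.26 (limma adjusted p = 0.0349), and the claudin Cldn7 fell by 3.28 with SAR (limma adjusted p = 0.0153). Krt8 and Krt18, which hepatocytes also express, passed in both comparisons, and Cdh1, Ocln and Tjp1 in neither. The higher count was 2 and 1 without model libraries a and b, and 3 and 6 without normal libraries a and b. The lower count with SAR was 0 without model library a or b, and 5, 1 and 4 without SAR libraries a, b and c.

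The list of ductular reaction, progenitor and injury-linked genes had 14 of 19 higher and 1 lower in the model group, and 11 of 19 lower in the SAR group against the model group. Mmp7, a matrix metalloproteinase of injured duct epithelium, stood at 1.92, 8.65 and 9.94 normalised reads in normal libraries a, b and c, at 432, 458 and 27.9 in the model libraries and at 27.5, 2.42 and 6.42 in the SAR libraries. It rose by a log2 of 4.76 (SE 1.08, limma adjusted p = 0.0128) and fell by 4.31 (SE 1.10, limma adjusted p = 0.0198). The neutrophil-attracting chemokine Cxcl5 had 3 reads over the normal group, 130 over the model group and 2 over the SAR group. The pooled ratio of model to normal was 31.4 (exact 95% interval 10.5 to 154) and of model to SAR 40.0 (10.9 to 334), both covering counting error only. The adhesion molecule Ncam1 rose by 3.53 (limma adjusted p = 0.0334), and the mucin Muc1 fell by 3.01 with SAR (limma adjusted p = 0.0181). Lamb3, a laminin chain, was the gene that fell in the model group. In the SAR group it was lower than in the normal group (log2 -2.31, limma adjusted p = 0.0297), with 31.5 to 62.1 normalised reads against 137 to 358, and no other gene of the 12 tested passed in that comparison. The higher count was 7 and 6 without model libraries a and b and 8 without normal library a, and the lower count with SAR was 5 and 4 without model libraries a and b, 18 without model library c and 6 without SAR library b or c. Without normal library c and model library c together, the higher counts of the 5 lists in the order given were 10, 8, 10, 16 and 16, in a fit where 57.8% of all genes changed in either direction.

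**Figure D4:**
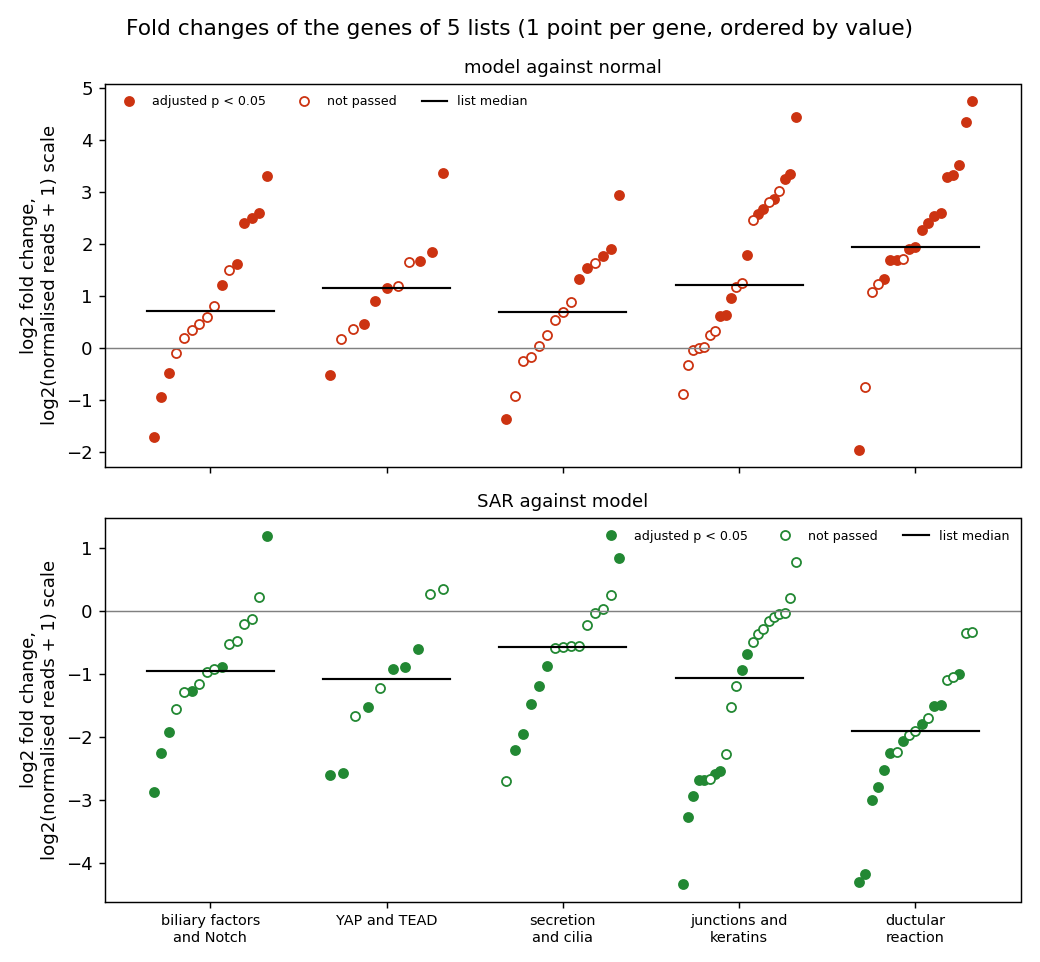
Log2 fold changes on the log2(normalised reads + 1) scale of the tested genes of 5 lists, 1 point per gene in order of value within a list, with model against normal above and SAR against model below. List medians lie between 0.70 and 1.94 above and between -1.90 and -0.57 below, and filled points passed an adjusted p of 0.05.

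Markers of other cells that could hold some of these transcripts were summed. Mesothelial markers, from the cells on the liver surface, summed to 17.3 to 53.0 normalised reads in the normal libraries, 33.5 to 53.3 in the model libraries and 20.3 to 32.7 in the SAR libraries. Of its 8 genes 1 was at 0 in the normal group (Bnc1), 2 in the model group (Upk1b and Muc16) and 3 in the SAR group (Upk1b, Muc16 and Bnc1). Exocrine pancreas markers summed to 350 in normal library b against 7.69 and 18.8 in normal libraries a and c, to 4.78 to 19.8 in the model libraries and to 5.14 to 9.69 in the SAR libraries. All 9 measured pancreas genes had a read in the normal group, and of these Cpb1 was at 0 in the model group. Normal library b also had the highest normal value of Krt7, Krt19, Epcam, Cftr and Cldn4, and the part of pancreatic tissue in these was not tested. Stellate cell and fibroblast markers summed to 1162 to 4035 in the normal libraries, 7118 to 8276 in the model libraries and 2785 to 4136 in the SAR libraries, with none of the 8 at 0. Of these 8 markers 4 were higher in the model group than in the normal group, against 20.2% of all genes tested. In the SAR group 6 of them were lower than in the model group, against 16.2% of all genes tested. The part of these markers in the lists above was not tested.

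Among 12201 genes compared over the 9 libraries, the 8 genes with profiles nearest to the members' median profile were Lama5, Scara3, Dcdc2a, Svep1, Enah, C1qtnf6, Crispld2 and Dhrs9. Likeness was the root-mean-square difference of log2 values centred on each gene's mean, which ran from 0.34 for Lama5 to 0.44 for Dhrs9. Among the members themselves this difference was 0.30 for Epcam, 0.36 for Krt19 and 0.44 for Krt7, and it was largest for Krt23, at 1.45. Lama5, a laminin chain of basement membranes, stood at 31.7, 68.1 and 36.4 normalised reads in normal libraries a, b and c, at 456, 393 and 81.2 in the model libraries and at 78.8, 38.8 and 39.8 in the SAR libraries. Dcdc2a, a gene of the cholangiocyte cilium that stands on the ductular reaction list too, had 221, 212 and 46.2 normalised reads in model libraries a, b and c and at most 45.4 in any other library. Library c was the lowest model library for both genes, as it was for 8 of the members. Both genes were chosen for likeness to a profile that was low in that library, so this follows from the choice.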

How the data were processed

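Liver RNA of 9 samples was measured, 3 each of the normal, model and SAR groups. The authors deposited 2 tables. Per the file headers, the signal that the authors deposited is a gene's mean count per group after scaling by DESeq, beside which stand the fold (ratio) of the group means, the log2 of that fold, and p-values with adjusted p-values. Reads were placed on mm9 according to the submitters' processing notes. Aligner, counter, strand setting and annotation remain not given in the sources used here, so overlapping and antisense genes may share reads. Per the labels' protocols, Trizol was used for RNA and an NEBNext Ultra kit for the libraries.

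A group mean adds up the whole reads of 3 libraries, each scaled by its own size factor, and has enough digits for the reads of each library to be solved from it. In the normal group 16189 of 16259 genes had 1 solution (70 had several), in the SAR group 16200 of 16200 and in the model group, from both tables, 16113 of 16113. Model reads solved from 1 table at a time were the same in both for 16070 of 16070 genes. Genes resolved in all 9 libraries numbered 16335, and 186 were not, among them all 10 hepatocyte markers. A gene could still be tested where the 6 libraries of a comparison were resolved. Hnf4a was tested in this way for SAR against model (log2 1.22). Of 16521 gene IDs 16490 matched a symbol.

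The plan allowed for values per library or group means, and limma 3.58.1 (R 4.3.3) with a trended variance was run on log2(value + 1), two-sided, for genes with a mean of at least 10 over 6 libraries, with p-values adjusted by Benjamini-Hochberg across the whole tested table and called under 0.05. The authors' size factors were used within a table, and medians of ratios over 9 libraries for SAR against normal and for all values per library. On the log2(value + 1) scale the change of a gene with few reads is understated. Intervals are 95%. The fits were tested on simulated data. Named genes were all 9 members, the 3 with the largest change among those called per list and comparison, and the 8 nearest profiles, and further genes of a list are named for their direction only. The members and lists were chosen with earlier results of these data known. Alternatives were other scaling, pseudocounts, filters, fits and the omission of each library.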

Additional observations from a re-analysis of the deposited data

How the results depend on the processing

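The number of bile duct genes called for model against normal was 7, with 39.1% of all genes changed. It was 4 of 6 tested with a minimum mean of 50 (41.3% of all genes changed). It was 3 in limma without a trend (35.3%) and 8 with all 3 groups in 1 fit (43.2%). When 1 library was left out it ranged from 0 to 8, and the share of all genes from 19.7% to 46%. For SAR against model the number was 6, with 29.4% of all genes changed. It was 2 in limma without a trend (23.6%) and 2 by the authors' deposited adjusted p (16.5%). When 1 library was left out it ranged from 1 to 9, and the share of all genes from 12.5% to 41.3%. For SAR against normal the number was 0 (3.57%) and ranged from 0 to 1, with shares of 0.0516% to 9.29%. Scaling by TMM left the counts at 7, 6 and 0, with 39.1%, 29% and 3.68% of all genes changed. Among the members' fold changes, directions differed only in values that did not pass: Krt23 for model against normal was -0.026 without normal library c, Krt23 for SAR against normal was 0.16 without normal library a, and Epcam for SAR against normal, -0.01, was 0.0031 with a pseudocount of 10, 0.39 without normal library b, 0.041 without normal library c and 0.53 without SAR library c. Of 139 recomputed values for model against normal 106 kept their direction and side of the threshold, of 131 for SAR against model 98, and of 68 for SAR against normal 62. Where 1 library was left out, the cause of a lost call was not tested. No paired analysis was possible because the recovered libraries carry no replicate number of the labels. The planned fits with edgeR and DESeq2 were not run, so the recovered reads were tested with limma only. Depth limits Cftr, Sctr and Cldn4, which had at most 10 reads over the normal or SAR group.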

Other observations

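Vil1, which encodes the microvillus protein villin and stood on the list of intestinal markers, was singled out after its values were seen. It had 0 reads in all 3 normal libraries, 71, 67 and 4 reads in model libraries a, b and c and 4, 3 and 2 reads in the SAR libraries. Against a floor of 3 reads over the group it was at least 34.3-fold higher in the model group than in the normal group. Of the other intestinal markers measured, Fabp2 stood at 1129 to 2662 normalised reads in normal libraries and 1587 to 3127 in model libraries. Lgals4 stood at 264 to 394 in normal libraries and 445 to 718 in model libraries. Reg3b went the opposite way to Vil1, with 10 reads in normal libraries and 0 in model and SAR libraries. Muc2 had 0 reads in normal libraries, 3 in model libraries and 4 in SAR libraries.

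Other genes were taken from those with at most 3 reads over the normal or SAR group, a choice that favours large ratios. The claudin Cldn6 had 76 reads in model libraries and 2 in normal ones, a ratio, pooled over each group, of 27.5 (exact 95% interval 7.36 to 231, counting error only). Gprc5a, a membrane receptor of epithelia, had 95 and 3, a ratio of 22.9 (7.61 to 113). In SAR libraries Cldn6 had 14 reads and Gprc5a 13, with ratios of SAR to normal of 8.23 (1.89 to 74.6) and 5.09 (1.40 to 27.9). Itgb6, an integrin chain of injured epithelium, had 37 reads in model libraries and 2 in SAR ones, a ratio of 11.4 (2.94 to 97.6).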
